A study of Arabidopsis halleri with 12 samples.

Results

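Coumarin synthesis in roots was followed through 3 genes, AT3G13610, AT3G12900 and BGLU42, out of 13350 genes with a probe set annotated to 1 gene. They were taken by gene symbol from the probe-to-gene table, and each had 1 probe set. The choice was made with earlier results of these data known. None of the 3 encodes an exporter, and ABCG37 (also called PDR9), which exports phenolics from roots of Arabidopsis thaliana, is not analysed here. Total RNA came from roots of 5-week-old plants of the zinc hyperaccumulator Arabidopsis halleri grown in hydroponics, measured on 12 single-colour arrays. The groups, with 3 arrays each, were AhNAS2-RNAi-1-2 with 10 µM zinc added ("RNAi zinc"), Langelsheim wild type with the same addition ("WT zinc"), AhNAS2-RNAi-1-2 in control medium ("RNAi control") and Langelsheim wild type in control medium ("WT control"). Both media were Hoagland solution, and every array pooled 3 clonally propagated plants. RNAi plants had suppressed AhNAS2, a nicotianamine synthase whose product binds zinc and iron. Because a single RNAi line was profiled, suppression and other differences between that line and the wild type cannot be told apart.

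Coumarins are phenolics that roots of Arabidopsis thaliana release when iron is scarce, and some of them bind and reduce iron outside the root. AT3G13610 encodes the feruloyl-CoA hydroxylase that opens the branch from phenylpropanoid metabolism to scopoletin, and AT3G12900 encodes the hydroxylase that turns scopoletin into fraxetin. Both enzymes need iron themselves and belong to the same family of dioxygenases. BGLU42 encodes a root glucosidase that, in Arabidopsis thaliana, is needed for the release of iron-mobilising phenolics. In that species iron deficiency induces these genes through the regulator FIT.

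Levels are given on the deposited log2 scale, on which a difference of 1 is a doubling of signal. The median level of an array was 5.34 to 5.38, and pairs of arrays correlated at 0.982 to 0.996. WT control replicate 2 had the lowest mean correlation with the other arrays, 0.987, against 0.988 to 0.992 for the remaining 11. Of 12 shoot markers 2 had a named probe set, RCA, whose group means of 4.62 to 4.81 were under every array's median, and LHCB4.1, with 5.39 to 5.70. Of 12 root markers 4 had one, and their group means lay above the medians, for example 7.78 to 8.30 for the root hair expansin EXPA7. The level of AhNAS2 itself was not read by name here, so the RNAi label was not checked against its target. A harvest with fewer cells of a type and less RNA per cell cannot be told apart in these pooled roots.

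AT3G13610 had 10.02, 9.85 and 9.56 in RNAi zinc roots, against 10.70, 10.75 and 10.01 in WT zinc roots. In control medium it had 10.42, 10.63 and 10.61 in RNAi roots, against 10.25, 10.53 and 10.69 in WT roots. All 3 RNAi zinc arrays were below all 6 control-medium arrays, while WT zinc replicate 3 sat within the RNAi zinc range. The share of all probe sets with that separation is not given here. In order of level, RNAi control averaged 10.55 ± 0.11, WT control 10.49 ± 0.22, WT zinc 10.49 ± 0.41 and RNAi zinc 9.81 ± 0.23 (SD, n = 3 each). The first 3 groups differed by less than their spread, and the gap of 0.68 from WT zinc to RNAi zinc exceeded the larger SD of the pair, although their ranges touched.

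**Figure D1:**
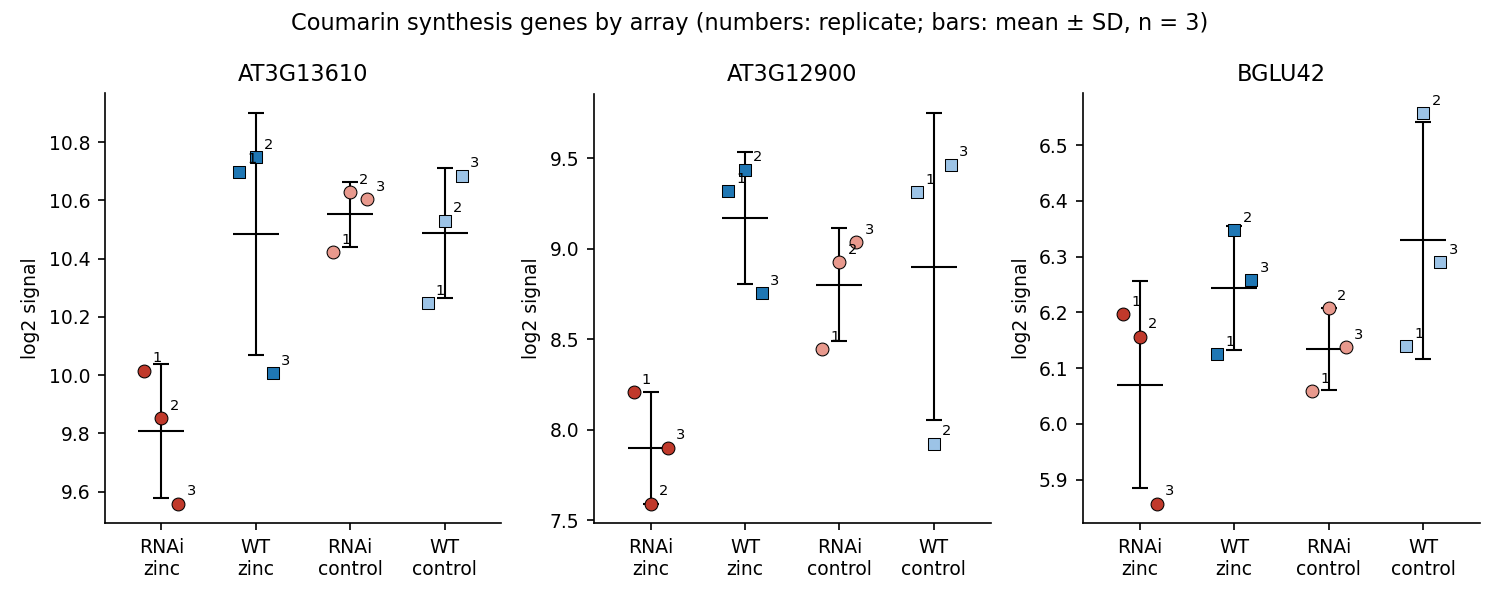
Log2 signal of the 3 genes on each array (points, with the replicate number) with the group mean and SD (bars, n = 3), for RNAi zinc, WT zinc, RNAi control and WT control from left to right. The RNAi zinc arrays of AT3G13610 reach at most 10.02 and those of AT3G12900 at most 8.21, and WT control replicate 2 stands at 7.92 for AT3G12900.

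AT3G12900 had 8.21, 7.59 and 7.90 in RNAi zinc roots, against 9.32, 9.44 and 8.75 in WT zinc roots. It had 8.44, 8.93 and 9.03 in RNAi control roots, against 9.31, 7.92 and 9.46 in WT control roots. Every RNAi zinc array was below every WT zinc and every RNAi control array, and only WT control replicate 2 reached down into the RNAi zinc range. The share of all probe sets below both groups at once is not given here. From high to low, WT zinc averaged 9.17 ± 0.36, WT control 8.90 ± 0.85, RNAi control 8.80 ± 0.31 and RNAi zinc 7.90 ± 0.31 (SD, n = 3 each). Neighbours among the upper 3 groups differed by 0.27 and 0.10, less than their spread. The step of 0.90 from RNAi control to RNAi zinc was larger than the SD of either group.

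BGLU42 varied less than the hydroxylase genes. It had 6.20, 6.16 and 5.86 in RNAi zinc roots, against 6.13, 6.35 and 6.26 in WT zinc roots. In control medium it had 6.06, 6.21 and 6.14 in RNAi roots, against 6.14, 6.56 and 6.29 in WT roots. The groups overlapped in every pairing, and the ordered means, WT control at 6.33 ± 0.21, WT zinc at 6.24 ± 0.11, RNAi control at 6.13 ± 0.07 and RNAi zinc at 6.07 ± 0.19 (SD, n = 3 each), differed between neighbours by less than the larger SD.

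The line comparison with added zinc addressed how the RNAi line differed from the wild type when zinc was supplied. AT3G12900 was 2.41-fold lower in RNAi than in WT roots (log2 difference -1.27, SE 0.35, 95% interval -2.03 to -0.51, unadjusted p = 0.00354, adjusted p = 0.344). AT3G13610 was 1.60-fold lower (log2 difference -0.68, SE 0.19, 95% interval -1.09 to -0.26, unadjusted p = 0.00405, adjusted p = 0.361). BGLU42 was 1.13-fold lower, with an interval that included 0 (log2 difference -0.17, SE 0.12, -0.44 to 0.09, adjusted p = 0.825). None of the 3 passed the threshold, an adjusted p under 0.05 over all 22746 probe sets, which 0.0528% of all probe sets passed.

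Both hydroxylase genes had an unadjusted p under 0.05 and a lower level, as did 3.98% of all probe sets in that direction. Groups that did not overlap, with RNAi lower, were found for 1 of the 3 genes, AT3G12900, and for 6.82% of all probe sets. By size, 14 of the 22746 probe sets had a lower difference than AT3G12900 and 105 a lower one than AT3G13610. The median over the 3 genes was -0.68, beside -0.0024 over all probe sets.

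Marker and quality readings of the same arrays are given beside these values. The summed signal of the 4 root markers ran from 1420 to 1603 in RNAi zinc and from 1440 to 1586 in WT zinc, and that of the 2 shoot markers from 66.0 to 96.4 and from 62.4 to 73.9 (linear scale). The difference between the 3′ and 5′ control probe sets of ubiquitin, a measure of RNA integrity, was 0.52 to 0.64 in RNAi zinc and 0.62 to 0.68 in WT zinc (log2). The same difference ran the other way for actin, with means of 2.88 in RNAi zinc and 2.73 in WT zinc, and for GAPDH, with 0.044 in RNAi zinc and -0.029 in WT zinc, and the lines overlapped in all 3. The part of these readings in the result was not tested.

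**Figure D2:**
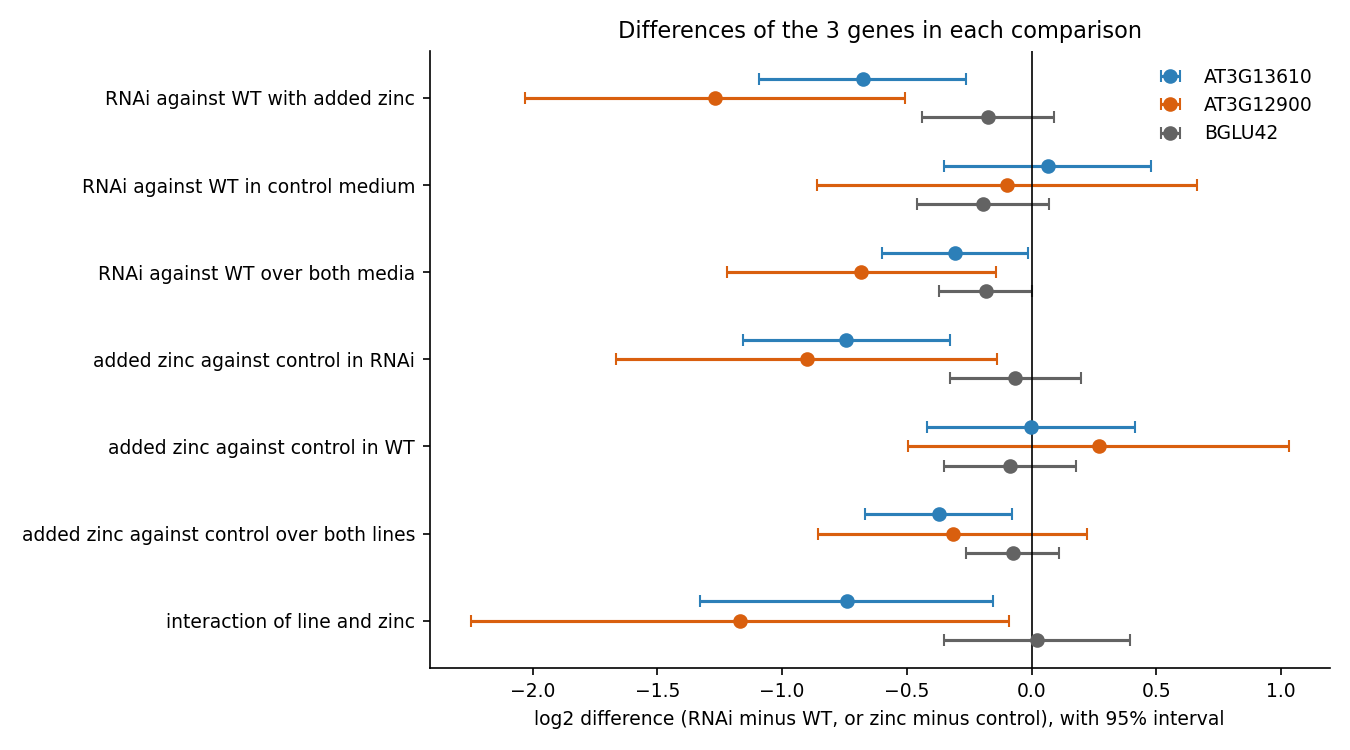
Log2 differences (points) with 95% intervals (bars) of AT3G13610, AT3G12900 and BGLU42 in the 7 comparisons, RNAi minus WT or zinc minus control, all from 1 limma fit. The intervals of AT3G13610 and AT3G12900 leave out 0 for RNAi against WT with added zinc and over both media, for zinc in RNAi roots and for the interaction, that of AT3G13610 also for zinc over both lines, and no adjusted p is under 0.05.

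In control medium the same comparison asked for differences without added zinc. The interval for AT3G13610 ran from -0.35 to 0.48 around a log2 difference of 0.06 (SE 0.19, adjusted p = 0.959), and that for AT3G12900 from -0.86 to 0.66 around -0.10 (SE 0.35, adjusted p = 0.967). BGLU42 differed by -0.19 (SE 0.12, -0.46 to 0.07, adjusted p = 0.706). No gene of the 3 passed, beside 0.022% of all probe sets, and none had RNAi arrays entirely below WT arrays, beside 7.09%. With the replicate block, which pairs the lines in this medium, 3 in place of 5 probe sets passed and again none of the 3 genes. Without WT control replicate 2, at 7.92 against 9.31 and 9.46 for its group, the difference of AT3G12900 was -0.59 (SE 0.24, unadjusted p = 0.0309, adjusted p = 0.666).

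Over both media, with 6 arrays per line, all 3 genes were lower in RNAi. AT3G12900 differed by -0.68 (SE 0.25, unadjusted p = 0.0173, adjusted p = 0.245), AT3G13610 by -0.31 (SE 0.13, unadjusted p = 0.0423, adjusted p = 0.350) and BGLU42 by -0.18 (SE 0.086, unadjusted p = 0.0527, adjusted p = 0.383). None passed, whereas 1.05% of all probe sets did. At an unadjusted p under 0.05, 2 of the 3 genes were lower, beside 7.05% of all probe sets.

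AT3G12900 passed in this comparison only when 1 particular array was left out. Without WT control replicate 2 its difference over both media was -0.93 (SE 0.16, adjusted p = 0.0268), past the threshold. Leaving out each of the other 11 arrays gave -0.79 to -0.54 and adjusted p-values of 0.212 to 0.430. For AT3G13610, leaving out WT zinc replicate 3 gave -0.43 (SE 0.10, adjusted p = 0.0865) over both media and -0.92 (SE 0.15, adjusted p = 0.0621) with added zinc, the lowest adjusted p of its leave-one-out fits in each.

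**Figure D3:**
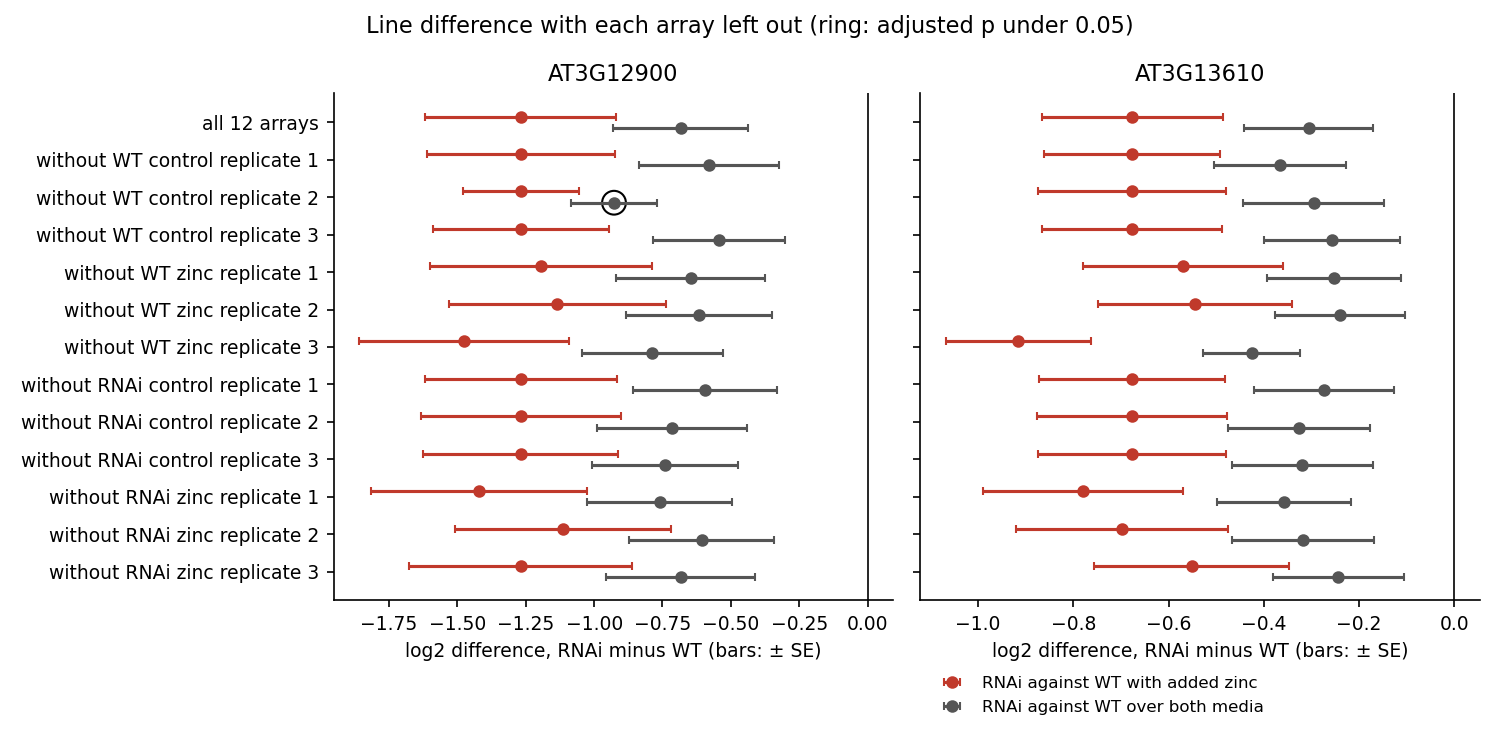
Log2 difference, RNAi minus WT, of AT3G12900 (left) and AT3G13610 (right) with all 12 arrays and with each array left out, with added zinc (red) and over both media (grey); bars are ± SE and a ring marks an adjusted p under 0.05. Every point is below 0, and the only ring is AT3G12900 over both media without WT control replicate 2, at -0.93.

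The response to zinc was taken within each line, as zinc medium minus control medium. In RNAi roots AT3G13610 was 1.67-fold lower with zinc (log2 difference -0.74, SE 0.19, unadjusted p = 0.00215, adjusted p = 0.913) and AT3G12900 1.87-fold lower (-0.90, SE 0.35, unadjusted p = 0.0244, adjusted p = 0.9996). BGLU42 differed by -0.06 (SE 0.12, adjusted p = 0.9996). For both hydroxylase genes every zinc array was below every control array, as for 5.41% of all probe sets, and both were lower at an unadjusted p under 0.05, as were 2.58%. None of the 3 genes passed limma's adjusted threshold, and neither did any other probe set (0%), with 1027 at an unadjusted p under 0.05.

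In WT roots the zinc arrays overlapped the control arrays for all 3 genes. AT3G12900 differed by 0.27 (SE 0.35, 95% interval -0.49 to 1.03, adjusted p = 0.988), AT3G13610 by -0.0026 (SE 0.19, -0.42 to 0.41, adjusted p = 0.9995) and BGLU42 by -0.09 (SE 0.12, -0.35 to 0.18, adjusted p = 0.988). Without WT control replicate 2 the sign for AT3G12900 turned, to -0.22 (SE 0.24, adjusted p = 0.9992). Again 0% of all probe sets passed with limma, with 1147 at an unadjusted p under 0.05. Over both lines the differences were -0.37 (SE 0.13, unadjusted p = 0.0171, adjusted p = 0.562) for AT3G13610, -0.32 (SE 0.25, adjusted p = 0.822; -0.56 without WT control replicate 2) for AT3G12900 and -0.07 (SE 0.086, adjusted p = 0.889) for BGLU42. There too 0% passed with limma, with 1734 at an unadjusted p under 0.05.

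Spiked hybridization controls, whose RNA is not from the plants, had lower signal with zinc, at 9.60 to 9.72 in RNAi zinc against 9.90 to 10.28 in RNAi control, and at 9.64 to 9.87 in WT zinc against 10.01 to 10.03 in WT control. With their level as a covariate the zinc difference in RNAi roots was -0.78 (SE 0.35) for AT3G13610 and -1.29 (SE 0.62) for AT3G12900. Within each line their level separated the media without overlap, so the control level and zinc cannot be told apart there.

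The interaction asked whether the zinc response differed between the lines. It was -1.17 for AT3G12900 (SE 0.49, 95% interval -2.25 to -0.09, unadjusted p = 0.0359) and -0.74 for AT3G13610 (SE 0.27, -1.33 to -0.15, unadjusted p = 0.0177), and both had an adjusted p of 0.9999. For BGLU42 it was 0.02 (SE 0.17, -0.35 to 0.39, adjusted p = 0.9999). None of the 3 genes passed limma's adjusted threshold, which 0% of all probe sets passed, and 497 had an unadjusted p under 0.05. The unadjusted p was under 0.05 with a negative value for 2 of the 3 genes, beside 1.17% of all probe sets. Without WT control replicate 2 the value for AT3G12900 was -0.68 (SE 0.32), and over the 12 fits with 1 array left out it ran from -1.45 to -0.68. Since the interaction did not pass, the line difference with zinc is not shown to differ from that in control medium.

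The hydroxylase genes were also set against each other within each array. The level of AT3G12900 minus that of AT3G13610, which says nothing of their relative abundance but can be compared between groups, averaged -1.91 ± 0.31 in RNAi zinc, -1.32 ± 0.06 in WT zinc, and in control medium -1.75 ± 0.21 in RNAi and -1.59 ± 0.89 in WT (SD, n = 3 each). With zinc the RNAi arrays ran from -2.26 to -1.66 and the WT arrays from -1.38 to -1.25, so they did not overlap. The difference between AT3G13610 and BGLU42 averaged 3.74 ± 0.07 in RNAi zinc, 4.24 ± 0.43 in WT zinc, and in control medium 4.42 ± 0.05 in RNAi and 4.16 ± 0.22 in WT. In RNAi roots it ran from 3.70 to 3.82 with zinc and from 4.36 to 4.47 in control medium. These differences are descriptions with no test, and how often other pairs of genes separate in this way is not given here.

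Over the 12 arrays the levels of AT3G13610 and AT3G12900 had a Pearson's r of 0.71 (permutation p = 0.0110, adjusted p = 0.0659) and a Spearman's rho of 0.81 (permutation p = 0.00215, adjusted p = 0.0129), adjusted over the 6 relations computed. Without RNAi zinc replicates 2 and 3, the arrays farthest from the median of AT3G13610, r was 0.47. As deviations from the group means r was 0.35 (permutation p = 0.259, adjusted p = 0.310) and rho was 0.51 (permutation p = 0.0932, adjusted p = 0.280). Leaving out the most extreme arrays can by itself lower r. How far the relation of levels rests on the RNAi zinc group was not tested, and as deviations no relation was shown. BGLU42 had an r of 0.53 with AT3G13610 (permutation p = 0.0801, adjusted p = 0.240) and of 0.13 with AT3G12900 (permutation p = 0.692, adjusted p = 0.692).

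**Figure D4:**
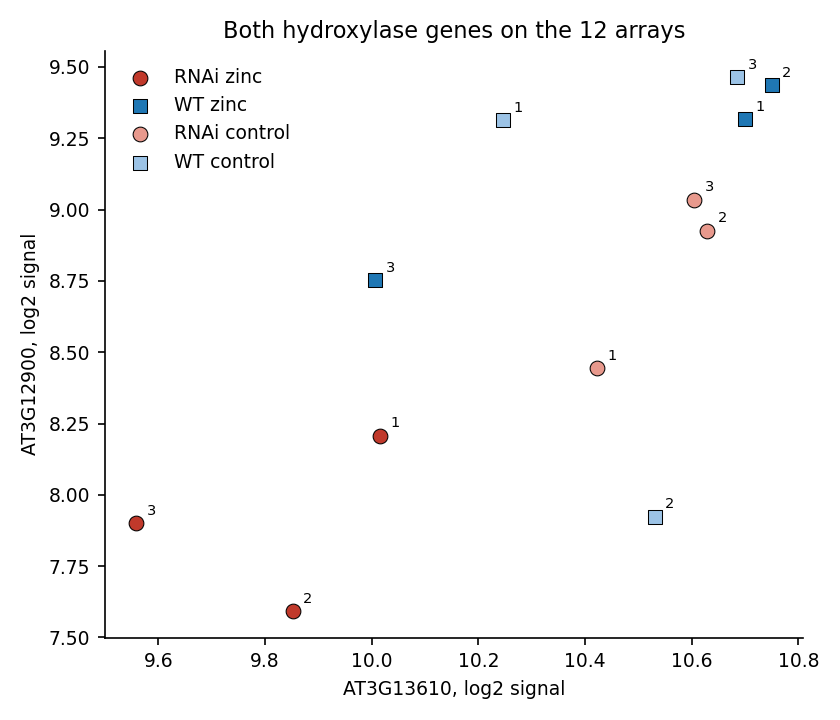
Log2 signal of AT3G12900 (vertical axis) against AT3G13610 (horizontal axis) on the 12 arrays, marked by group with the replicate number. The RNAi zinc arrays lie at the lower left, and WT control replicate 2 lies apart from the rest of its group, at 7.92 for AT3G12900 and 10.53 for AT3G13610.

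Of 10 other genes listed for the coumarin branch, its glucosidases, export and regulation, 3 had a probe set of their own, and 0 passed in each of the 7 comparisons. BGLU21 and BGLU22 of that list shared 1 probe set, which cannot be assigned to either and was not counted here or among the other BGLU genes. COSY (AT1G28680), the acyltransferase that closes the scopoletin ring, had 8.69, 8.77 and 8.48 in RNAi zinc against 9.04, 8.99 and 8.81 in WT zinc, and 8.91, 8.80 and 8.75 in RNAi control against 8.89, 9.21 and 9.11 in WT control. With zinc the arrays of the lines did not overlap, as for 6.82% of all probe sets with RNAi lower. In control medium they overlapped. Its log2 difference over both media was -0.27 (SE 0.076, unadjusted p = 0.00372, adjusted p = 0.126).

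F6'H2 (AT1G55290), a close relative of AT3G13610, had group means of 5.29 in RNAi zinc, 5.41 in WT zinc, and in control medium 5.48 in RNAi and 5.37 in WT. These lie close to the array medians, where a difference may go unseen. It differed between the lines by -0.12 with zinc (SE 0.084, adjusted p = 0.820) and by 0.11 in control medium (SE 0.084, adjusted p = 0.780). In RNAi roots F6'H2 had 5.28, 5.29 and 5.31 with zinc, against 5.46, 5.47 and 5.50 in control medium. Zinc arrays lay below control arrays there, as for AT3G13610 and for 5.41% of all probe sets. In WT roots the media overlapped, with 5.50, 5.50 and 5.24 against 5.33, 5.33 and 5.46. PYK10, a beta-glucosidase abundant in roots, differed by -0.11 with zinc (SE 0.11, adjusted p = 0.893) and by -0.25 in control medium (SE 0.11, adjusted p = 0.536).

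Of 14 genes listed for phenylpropanoid steps ahead of the coumarin branch, 2 had a named probe set. CCOAMT, related to the enzymes that methylate caffeoyl-CoA to feruloyl-CoA, the substrate of AT3G13610, rose in RNAi over both media by 0.67 (SE 0.082, adjusted p = 0.00434), opposite in sign to the 3 genes. It had 5.09, 5.22 and 5.37 in RNAi zinc against 4.49, 4.78 and 4.64 in WT zinc, and 5.33, 5.35 and 5.64 in RNAi control against 4.68, 4.56 and 4.81 in WT control. Its group means of 4.64 in WT zinc, 4.68 in WT control and 5.23 in RNAi zinc lay below the array medians. That of RNAi control, 5.44, lay just above them. The lines did not overlap in either medium, and the share of all probe sets that do so with RNAi higher is not given here. HCT, which acts on the way to caffeoyl-CoA, differed by -0.00089 over both media (SE 0.095, adjusted p = 0.997). None of the 4 genes listed for the neighbouring lignin branch had a named probe set.

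Among 19 other genes with a BGLU symbol none passed in any comparison. PYK10, a beta-glucosidase of the same family, was not counted among them. With zinc 12 were higher and 7 lower in RNAi, with a median of 0.017, from -0.22 for BGLU25 to 0.67 for BGLU43. The log2 difference of -0.17 for BGLU42 with zinc lay within that range. BGLU43 averaged 5.35 ± 0.19 in RNAi zinc, 4.68 ± 0.13 in WT zinc, and in control medium 4.77 ± 0.15 in RNAi and 4.60 ± 0.21 in WT (SD, n = 3 each). Its line difference with zinc had an adjusted p of 0.135. In control medium the 19 genes ran from -0.190 for BGLU41 to 0.64 for BGLU33, with a median of 0.049. BGLU42, at -0.195, lay just below them, and PYK10, at -0.25, lay lower still. Over both media BGLU42, at -0.184, was below the lowest of the 19, -0.088 for BGLU45, and close to PYK10, at -0.182. Most of the 19 had group means below the array medians, for example 3.78 to 3.94 for BGLU45, where a difference may go unseen. BGLU42, at 6.07 to 6.33, lay above the medians, so its place below the 19 does not set it apart from the family.

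**Figure D5:**
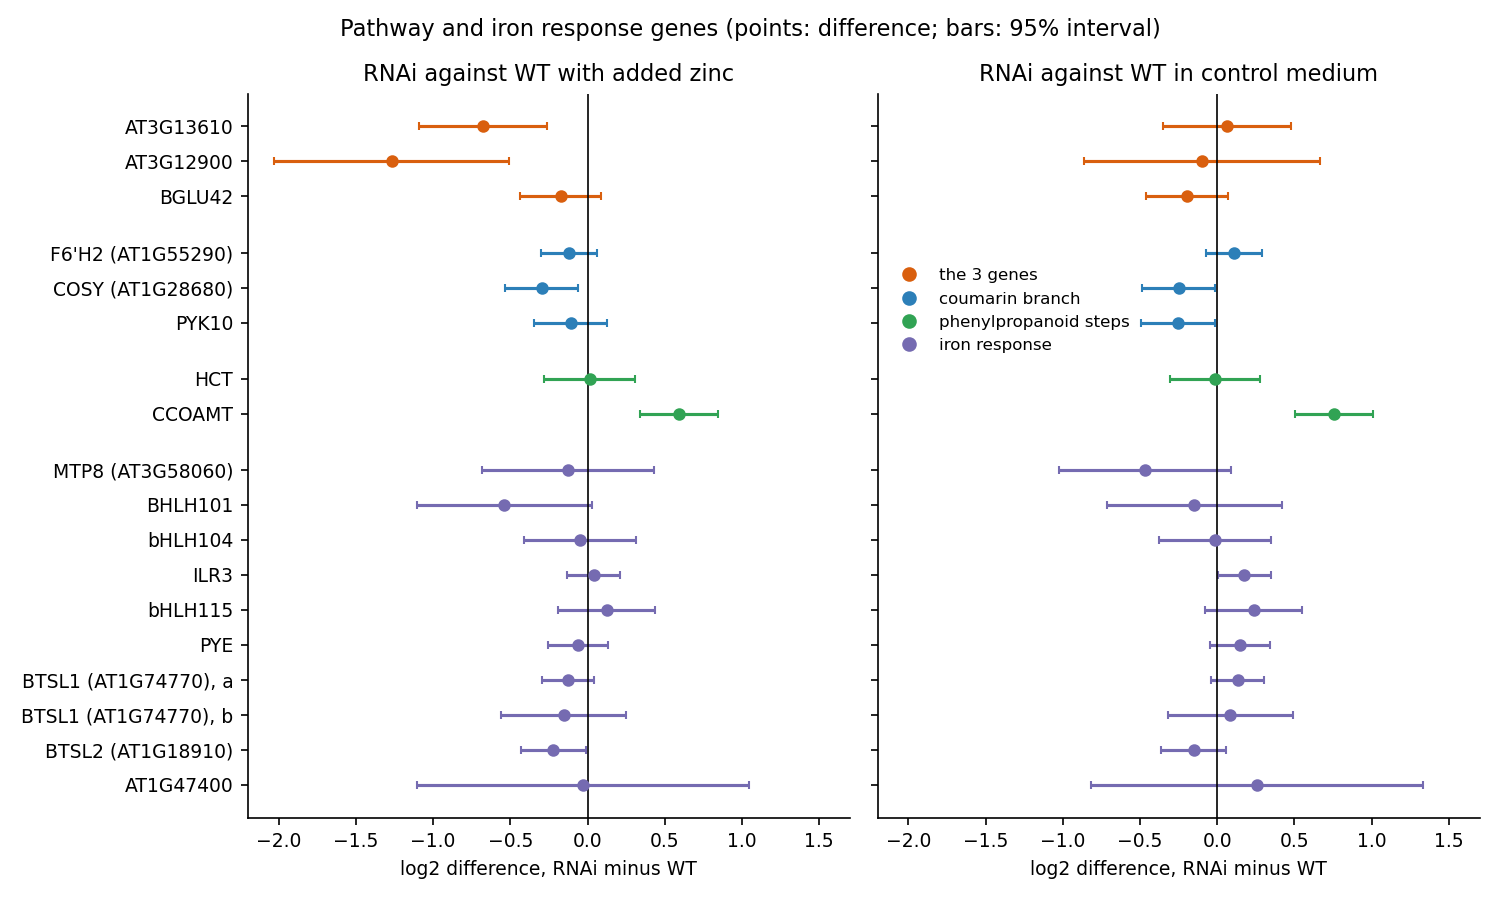
Log2 differences, RNAi minus WT, with 95% intervals for the 3 genes and for the listed coumarin branch, phenylpropanoid and iron response genes with a named probe set, with added zinc (left) and in control medium (right). The letters a and b mark the 2 probe sets of BTSL1. AT3G12900 at -1.27 and AT3G13610 at -0.68 are the lowest points with zinc, and CCOAMT is the highest in both panels, at 0.59 and 0.75.

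Genes of the iron deficiency response were read beside the 3 genes, because iron supply controls coumarin synthesis in Arabidopsis thaliana. Of 26 listed genes 9 had a named probe set, with 10 probe sets in all, and none passed in any comparison. With zinc 8 of the 10 probe sets were lower and 2 higher in RNAi, with a median of -0.094, and in control medium 4 were lower and 6 higher, with a median of 0.11. Of all probe sets 50.7% were below 0 with zinc and 49.5% in control medium. For the interaction 9 of the 10 were below 0 and 1 above, beside 49.4% of all probe sets below 0. The median of the 10 was -0.17, beside 0.0019 over all probe sets. These medians moved with single arrays. Without WT control replicate 2, the lowest WT control array for 7 of the 10 probe sets, the median was -0.0067 in control medium, with 5 lower and 5 higher, and -0.083 for the interaction. Without RNAi zinc replicate 1 it was -0.017 with zinc, with 6 lower and 4 higher, and -0.10 for the interaction. With zinc BHLH101, a transcription factor that iron deficiency induces, had 4.15, 4.46 and 4.61 in RNAi against 4.67, 4.99 and 5.17 in WT (log2 difference -0.54, SE 0.26, adjusted p = 0.674). All its values lay below the array medians. BTSL2 (AT1G18910), of a family of ubiquitin ligases that restrain the iron response, differed by -0.22 (SE 0.096, adjusted p = 0.619), and the metal carrier MTP8 (AT3G58060) by -0.13 (SE 0.26, adjusted p = 0.959).

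The named genes whose levels followed each of the 3 genes most closely were taken by Pearson's r over the 12 arrays among 13510 other single-gene probe sets. For AT3G13610 they were AT1G44030 (r = 0.89), AT5G56310 (0.89), AT2G07700 (0.88), AT2G24620 (0.88) and AT3G61550 (0.84). For AT3G12900 they were AT5G25520 (r = 0.86), AT5G62420 (0.84), AT2G44660 (0.84), AT1G31690 (0.82) and AT4G08110 (0.82). For BGLU42 they were AT1G54430 (r = 0.94), AT5G65100 (0.89), AT5G64010 (0.87), AT3G17160 (0.87) and AT5G48460 (0.87). Group means of the genes most like AT3G13610 and AT3G12900 lay between 2.96 and 4.95, below the array medians, as did those of AT1G54430, AT5G65100 and AT5G64010, between 2.92 and 3.99. Taken as deviations from the group means, 0, 0 and 1 of the 5 genes stayed among the closest 5 for AT3G13610, AT3G12900 and BGLU42, so the lists depend on the measure.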

How the data were processed

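The authors deposited 1 log2 value per probe set and array; RMA and the affy package are named per the submitters' processing notes, with no version or probe definition file. These values were used with no further scaling or filter. Of 22810 probe sets, 64 control probe sets were left out of the tests. A platform table annotated 13513 of the remaining 22746 to 1 gene, 503 to several and 8730 to none, by A. thaliana names, so an A. halleri signal also depends on how well the transcript matches the probes.

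A model of 4 group means over all 12 arrays was fitted with limma 3.58.1 in R 4.3.3 (lmFit, eBayes; 8 residual and 3.79 prior degrees of freedom). Tests were two-sided, with Benjamini-Hochberg adjustment over all 22746 probe sets of each of 7 comparisons and a threshold of 0.05. With so few arrays precision was limited, the median SE being 0.11 within a medium or line. The procedure was tested on simulated data. Alternatives (scaling, replicate blocks, variance priors, array weights, a dim filter, single arrays left out) are given in the closing section; the hybridization control covariate was added after seeing the data. Correlations used 100000 permutations. Replicates are pooled samples. The limma p-values set each difference against the spread between pools within groups, not between independent RNAi lines. Permutations of the levels ran over all 12 arrays without regard to group, so their p-values also reflect differences between groups.

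The genes, lists and rules were chosen with earlier results of these data known. Named are the 3 genes, the listed genes with a single-gene probe set, the extremes of the BGLU family and the 5 genes most like each. Same-numbered arrays deviated together from their group means in RNAi control and WT control (r = 0.16, 0.29 and 0.48 for replicates 1 to 3), so there the number may pair the lines. The main fit used no block, and no fit paired the lines in that medium alone.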

Additional observations from a re-analysis of the deposited data

How the results depend on the processing

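Each difference of the 3 genes was recomputed under 21 or 22 alternatives (array scaling, replicate blocks, variance priors, array weights, a filter on dim probe sets, only the arrays compared, a covariate and each array left out), 453 values in all. The covariate, and leaving arrays out of the gene lists, were chosen after seeing the data. Of the 453 values 1 passed the threshold, AT3G12900 over both media without WT control replicate 2, with a range over left-out arrays of -0.93 to -0.54, and 19 changed sign. Why WT control replicate 2 differs was not tested.

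Where leaving out an array changed a sign, the values over all left-out arrays ran as follows. Between the lines in control medium they ran from -0.056 to 0.16 for AT3G13610 and from -0.59 to 0.18 for AT3G12900. For zinc in WT they ran from -0.13 to 0.24 for AT3G13610, from -0.22 to 0.55 for AT3G12900 and from -0.18 to 0.029 for BGLU42. For BGLU42 they ran from -0.13 to 0.042 for zinc in RNAi and from -0.093 to 0.13 for the interaction. Zinc in WT was 0.00060 for AT3G13610 with median centring and 0.047 with quantile normalization, and -0.022 for AT3G12900 with the covariate. The interaction of BGLU42 was -0.050 with array weights. The correlation of AT3G12900 and BGLU42 was -0.42 as deviations and -0.32 without the 2 arrays farthest from the median. The cause was not tested.

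The replicate block left all 3 genes on the same side of the threshold in each comparison (AT3G12900 -1.27 with zinc, adjusted p = 0.389). With it 15 in place of 12 probe sets passed with zinc, 165 in place of 239 over both media and 2 in place of 0 for zinc over both lines, where left-out arrays gave 0 to 4. For zinc in WT left-out arrays gave 0 to 1. Outside control medium, same-numbered arrays did not deviate together in every pair (r from -0.45 to 0.41). The count in control medium was 31 with array weights, 11 with either trended prior, 3 with the dim filter or only the arrays compared, and 1 to 20 with an array left out. Over left-out arrays it was 2 to 29 with zinc and 68 to 267 over both media, and with the covariate 159 over both media.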

Other observations

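WT control replicate 2, on which AT3G12900 stood at 7.92 against 9.31 and 9.46 in the other WT control arrays, also held low values of iron response genes. AT1G47400, a gene for a small iron-regulated peptide, was at 4.28 there and at 5.62 and 6.79 on replicates 1 and 3. BHLH101 was at 3.96 there, and at 4.97 and 5.20 on the others. PYE, a transcription factor of the iron deficiency response, was at 4.48 there, and at 4.67 and 4.72 on the others. These 3 were at their lowest of all 12 arrays, and 7 of the 10 iron response probe sets were at their lowest of the WT control arrays on it. The share of all probe sets that are lowest on this array is not given here. This array also had the lowest mean correlation with the other arrays, 0.987, so a trait particular to iron genes is not shown. AT3G13610 was not low there, at 10.53, between 10.25 and 10.69 on the others, and BGLU42 was at its highest of all arrays, 6.56. These values were picked out after the array's low AT3G12900 had been seen and were not tested.

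The root hair expansins had lower means with zinc in both lines, with neither past the threshold. EXPA7 averaged 7.79 ± 0.55 in RNAi zinc and 8.23 ± 0.62 in RNAi control, and 7.78 ± 0.32 in WT zinc and 8.30 ± 0.25 in WT control (SD, n = 3 each), a zinc difference of -0.48 over both lines (SE 0.22, adjusted p = 0.656). EXPA18 differed by -0.46 (SE 0.25, adjusted p = 0.714). CORTEX2 (AT1G62500), of the same list of root markers, differed in the other direction, by 0.35 over both lines (SE 0.18, adjusted p = 0.705), and PYK10 by -0.05 (SE 0.077, adjusted p = 0.919). The line differences over both media were -0.03 (SE 0.22) for EXPA7 and 0.05 (SE 0.25) for EXPA18.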
